A study of Mus musculus with 204 samples.

Results

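The members of the mammalian circadian clock described here are Per2, Cry2, Npas2 and Ciart, taken as the rows of the deposited expression table with those symbols, 4 genes of 13153 in the table. The values were CPM (a gene's read count scaled to the same total in every library) in RNA sequencing libraries of DIO and lean male C57BL/6J mice, from 21 tissues each. DIO mice (102 libraries) were diet-induced obese after 10 weeks on a diet with 60% fat, begun at 4 weeks of age per the labels, and lean mice (102 libraries) ate chow with 13.1% fat. No transgene, deletion or drug was named for either group. The labels gave an age of 6 to 12 weeks at purchase as well as 4 weeks at the change of diet, so the age at dissection could not be settled. The design text named 5 mice of each diet, and most tissues had 5 libraries of each. The exceptions were subcutaneous fat (3 DIO and 5 lean), mesenteric fat (4 DIO and 3 lean) and EDL, the extensor digitorum longus, a fast muscle (5 DIO and 4 lean). Lights were on between 6 AM and 6 PM. The hour at which each mouse was dissected was not in the labels, so a difference between diets and a difference in the hour of dissection cannot be told apart for any gene below. Libraries are numbered within a tissue and diet in the order of their records. The labels did not tie a number to a mouse, and p-values therefore measure the spread between these libraries only.

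The clock of mammalian cells is a feedback loop of transcription. CLOCK or its paralogue NPAS2 pairs with BMAL1, binds E-box sequences and drives the Per, Cry and Ciart genes; PER and CRY proteins, and CIART, then repress that same activity. In peripheral organs the loop is set by the brain's suprachiasmatic nucleus, by feeding and by glucocorticoids, and Npas2 is transcribed in opposite phase to Per2 and Ciart in mouse liver. Per2 encodes a PERIOD repressor, Cry2 a cryptochrome that stabilises the repressor complex, and Ciart (also called Chrono) a further repressor of CLOCK and BMAL1. The other loop genes, Bmal1 and Clock among them, were not analysed here; the table as used ran through chromosomes 1, 2, 3 and X and a first stretch of chromosome 4.

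In the GENCODE M21 annotation (GRCm38), Per2 lies on the minus strand at chr1:91415982-91459324, Cry2 on the minus strand at chr2:92403646-92434043, Npas2 on the plus strand at chr1:39193731-39363236 and Ciart on the minus strand at chr3:95878503-95882251. Promoter windows from RefSeq (GRCm38.p6), from 250 bases before to 50 after the start, matched 3 members by symbol. They are shown because the E-box is the sequence through which the loop acts, with matches to the motifs in capitals. The motifs searched on both strands were the E-box CACGTG, the E-prime box CACGTT, the D-box as TTATGTAA or TTACGTAA, the ROR element core as TAGGTCA or TGGGTCA, and the cyclic AMP response element TGACGTCA.

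Ciart, chr3:95882179-95882478, minus strand: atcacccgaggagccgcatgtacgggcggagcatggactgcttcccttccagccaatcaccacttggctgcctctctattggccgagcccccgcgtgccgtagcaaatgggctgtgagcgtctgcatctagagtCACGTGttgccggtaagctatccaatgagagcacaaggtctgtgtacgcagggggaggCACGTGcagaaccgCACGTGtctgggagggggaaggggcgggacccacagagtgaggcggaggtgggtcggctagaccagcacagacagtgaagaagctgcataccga

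Cry2, chr2:92434020-92434319, minus strand: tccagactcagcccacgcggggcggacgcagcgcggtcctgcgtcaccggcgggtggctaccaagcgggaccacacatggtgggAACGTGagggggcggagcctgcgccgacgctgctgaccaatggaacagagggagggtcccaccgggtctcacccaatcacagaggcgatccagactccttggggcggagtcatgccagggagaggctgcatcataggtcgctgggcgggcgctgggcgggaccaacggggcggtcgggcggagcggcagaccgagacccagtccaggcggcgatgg

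Npas2, chr1:39194022-39194321, plus strand: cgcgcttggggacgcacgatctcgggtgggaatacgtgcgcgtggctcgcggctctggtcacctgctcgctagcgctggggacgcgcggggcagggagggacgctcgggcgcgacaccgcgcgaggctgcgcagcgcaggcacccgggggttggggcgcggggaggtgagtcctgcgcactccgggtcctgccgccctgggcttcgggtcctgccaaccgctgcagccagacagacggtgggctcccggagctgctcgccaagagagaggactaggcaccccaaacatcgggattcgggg

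The Ciart window held 3 E-boxes, beginning 116, 58 and 44 bases before the start and not overlapping. Of 32851 promoter windows of this length, 7.15% held at least 1 E-box and 29, or 0.0883%, held at least 3. The Cry2 window held 1 E-prime box, in capitals as its reverse complement, beginning 166 bases before the start; 4.68% of windows held one. The Npas2 window held none of the motifs. That window lies inside the GENCODE span of the gene, so the bases before the GENCODE start at chr1:39193731 were not searched. The D-box forms stood in 0.938% and 0.119% of windows, the ROR element forms in 2.61% and 3.98%, and the cyclic AMP response element in 1.79%; none of these was in the 3 windows. A match describes these letters and does not show binding.

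Library totals ran between 6580090 reads in DIO epididymal fat 5 and 129730968 reads in DIO epididymal fat 3. The median total was 20720854 reads, and the table held 13.0% to 23.1% of the reads of each library. Among 398 pairs of replicate libraries the lowest chi-square per degree of freedom was 3.69, so no pair was counted as 1 sample. 10 libraries stood apart by markers of other tissue. Adrenal cortex Hsd3b1 was 0.173, 0.0833 and 0 CPM in DIO adrenal 1, DIO adrenal 2 and lean adrenal 1, against 4239 CPM or more in the other adrenal libraries. The follicle marker Cr2 was 269 CPM in DIO mesenteric fat 2, and 147 and 146 CPM in lean subcutaneous fat 2 and 3. Brown and retroperitoneal fat each had 2 further libraries with high Tnnc2 or Cd2. Member values are given with and without the 10 libraries where a sign or a call turned. High marker values also occurred outside the 10. Cr2 reached 48.8 CPM in DIO ileum (median 1.69) and 41.4 CPM in DIO jejunum (median 5.18). The sum of the adipocyte markers Fabp4 and Irs1 reached 1073 CPM in DIO EDL (median 158) and 743 CPM in lean colon (median 96.9).

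All 4 genes were detected in every tissue, and their tissue patterns in lean mice differed. Cry2 and Ciart were highest in the 4 brain regions, whereas Npas2 was shared between cerebral cortex and gut. Lean Per2 averaged 45.5 ± 13.5 CPM in cerebral cortex, 43.0 ± 14.9 in cerebellum, 40.3 ± 20.2 in adrenal, 30.7 ± 8.64 in kidney, 28.2 ± 4.54 in hypothalamus, 26.0 ± 5.16 in midbrain and brainstem and 24.4 ± 9.24 in duodenum (mean ± SD, n = 5 each). It then averaged 23.8 ± 9.09 CPM in epididymal fat, 18.9 ± 7.96 in subcutaneous fat, 17.3 ± 6.72 in ileum, 16.9 ± 4.35 in liver, 16.3 ± 3.67 in colon, 15.1 ± 5.28 in brown fat and 15.0 ± 7.12 in retroperitoneal fat (n = 5 each). The lowest lean Per2 means were 13.5 ± 4.98 CPM in red gastrocnemius, 11.3 ± 4.03 in jejunum, 10.6 ± 2.33 in EDL, 9.00 ± 1.56 in mesenteric fat, 8.42 ± 3.84 in soleus, 8.03 ± 6.14 in heart and 7.02 ± 3.04 in the stomach lesser curvature (n = 5, with 4 in EDL and 3 in mesenteric fat). The highest mean was 6.48 times the lowest. No step between neighbours in this order exceeded the sum of the SDs of the tissues on either side, on the log2(CPM + 1) scale. The lean adrenal mean was 47.8 ± 12.7 CPM (n = 4) without lean adrenal 1. Adrenal then stood above cerebral cortex, the highest tissue with all libraries.

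Cry2 was the most even of the 4 across libraries. In lean brain it averaged 135 ± 11.9 CPM in cerebral cortex, 129 ± 14.3 in cerebellum, 109 ± 8.72 in hypothalamus and 94.3 ± 9.80 in midbrain and brainstem (n = 5 each). White fat followed, with 85.2 ± 17.0 CPM in epididymal fat, 77.5 ± 16.7 in retroperitoneal fat, 70.8 ± 19.0 in subcutaneous fat and 68.4 ± 5.33 in mesenteric fat (n = 5, with 3 in mesenteric fat). The next step, down to EDL, was the 1 step beyond the spread; the other 19 Cry2 steps, and all 20 of each other gene, were within it. Lean Cry2 then averaged 50.9 ± 6.67 CPM in EDL, 50.6 ± 9.61 in adrenal, 50.1 ± 9.28 in soleus, 43.9 ± 5.99 in brown fat, 40.9 ± 6.62 in red gastrocnemius, 39.5 ± 6.93 in colon and 38.1 ± 10.3 in liver. It was lowest in heart, kidney, stomach and small intestine, at 28.1 ± 8.90 CPM in heart, 26.3 ± 8.21 in kidney, 24.1 ± 6.11 in the stomach lesser curvature, 18.6 ± 2.98 in ileum, 16.8 ± 1.97 in jejunum and 15.6 ± 3.96 in duodenum (n = 5 each). The range of means was 8.69 times. Without the libraries that stood apart, the lean Cry2 means were 83.1 ± 9.95 CPM in subcutaneous fat (n = 3), 70.9 ± 9.18 in retroperitoneal fat, 53.6 ± 7.81 in adrenal and 46.1 ± 3.68 in brown fat (n = 4 each). Subcutaneous then stood above retroperitoneal fat and adrenal above EDL.

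Npas2, the DNA-binding activator of the set, had the widest range across tissues, 107 times. The highest lean means were 60.1 ± 10.4 CPM in cerebral cortex, 53.0 ± 15.0 in ileum, 39.0 ± 15.6 in jejunum, 30.3 ± 9.24 in colon, 21.6 ± 9.44 in duodenum and 20.4 ± 8.72 in hypothalamus (n = 5 each). Intermediate means were 11.6 ± 6.48 CPM in cerebellum, 11.2 ± 2.39 in midbrain and brainstem, 9.14 ± 1.71 in the stomach lesser curvature, 8.62 ± 3.68 in kidney, 5.48 ± 4.01 in retroperitoneal fat, 5.37 ± 2.71 in mesenteric fat and 5.13 ± 1.40 in adrenal. Fat, heart, liver and muscle were low. The means there were 4.24 ± 2.26 CPM in epididymal fat, 4.06 ± 1.87 in heart, 3.40 ± 2.45 in subcutaneous fat, 1.85 ± 1.24 in liver, 1.71 ± 0.690 in soleus, 1.31 ± 0.800 in brown fat, 1.09 ± 0.609 in red gastrocnemius and 0.562 ± 0.457 in EDL.

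Ciart was low everywhere and highest in brain. Its lean means were 13.4 ± 3.35 CPM in cerebellum, 11.8 ± 2.09 in midbrain and brainstem, 11.6 ± 1.70 in cerebral cortex and 10.4 ± 1.29 in hypothalamus (n = 5 each). They were 7.35 ± 4.47 CPM in kidney, 6.72 ± 3.89 in red gastrocnemius, 6.54 ± 3.49 in colon, 6.05 ± 3.16 in soleus, 5.17 ± 1.97 in EDL, 4.58 ± 2.59 in brown fat, 3.61 ± 2.67 in heart and 3.16 ± 2.59 in epididymal fat in the next tissues. Adrenal, other fat, liver, stomach and small intestine closed the order. There the means were 2.94 ± 2.39 CPM in adrenal, 2.59 ± 2.31 in subcutaneous fat, 2.50 ± 2.62 in liver, 2.41 ± 2.10 in the stomach lesser curvature, 2.25 ± 2.09 in retroperitoneal fat, 1.55 ± 1.30 in mesenteric fat, 1.51 ± 1.05 in duodenum, 0.882 ± 0.595 in ileum and 0.643 ± 0.288 in jejunum. The highest mean was 20.9 times the lowest. Npas2 and Ciart ran in different orders in the gut, where jejunum and ileum ranked the third and the second for Npas2 and last for Ciart.

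**Figure D1:**
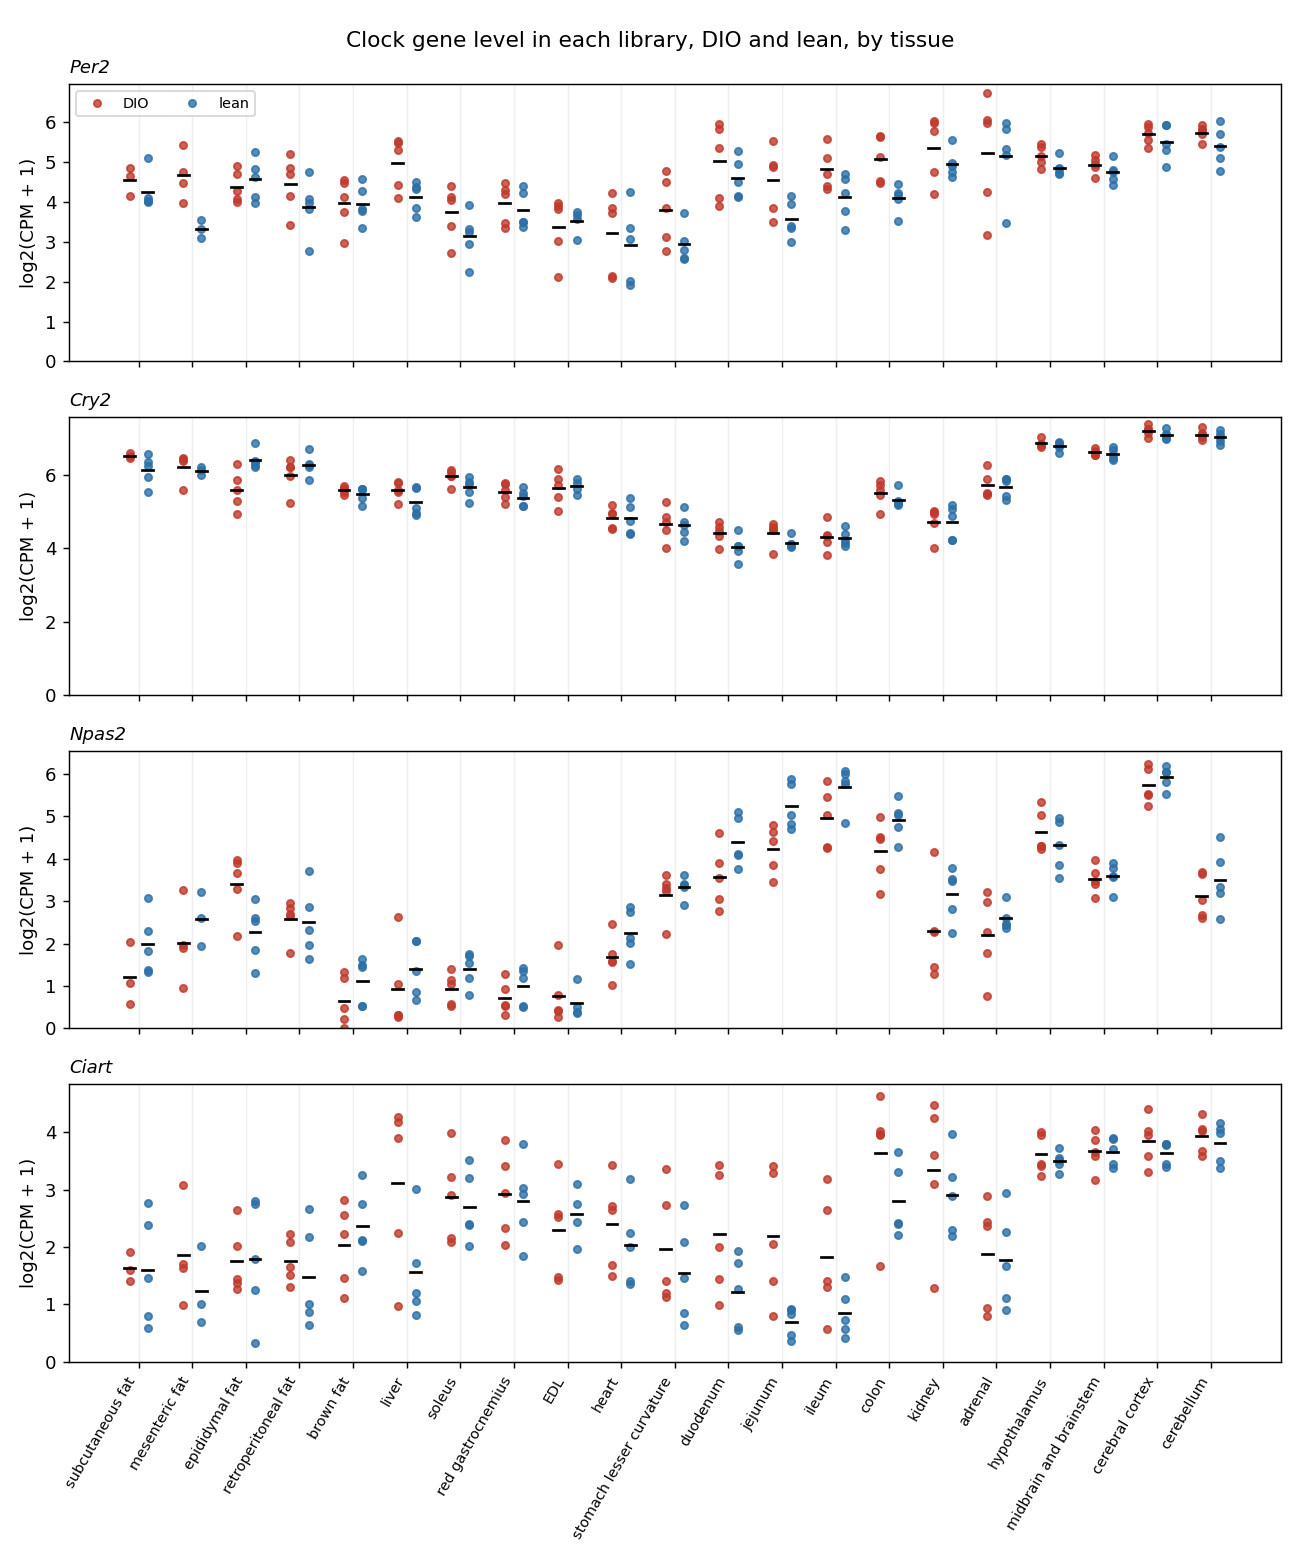
Level of Per2, Cry2, Npas2 and Ciart as log2(CPM + 1) in each library (points) with group means (bars), by tissue, DIO on the left and lean on the right of each pair. Cry2 libraries lie close together within a group, while Ciart and Npas2 spread widely, as in liver, where Ciart ran between 0.966 and 18.1 CPM in DIO and between 0.761 and 7.09 CPM in lean.

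Per kilobase of annotated exon, Cry2 was the highest of the 4 genes in 16 lean tissues, Npas2 in 4 and Per2 in 1. The 4 were duodenum, jejunum, ileum and colon, where Npas2 was 4.52, 8.15, 11.1 and 6.32 CPM per kb. In colon Cry2 was close behind at 6.24 CPM per kb. Kidney was the tissue in which Per2 led, at 5.24 CPM per kb against 4.16 for Cry2. In cerebral cortex the 4 genes were 21.4 for Cry2, 12.6 for Npas2, 7.77 for Per2 and 5.12 for Ciart in CPM per kb.

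The change with diet was tested in each tissue with limma on log2(CPM + 1) over all genes averaging 1 CPM or more in that tissue, with Benjamini-Hochberg adjustment and a threshold of 0.05. The 4 genes in 21 tissues made 84 pairs, of which 81 were tested; Npas2 fell under the filter in brown fat, red gastrocnemius and EDL. The threshold was passed by 4 pairs (4.94%), against 10.1% of the pairs of all genes tested, and 16 (19.8%) had an unadjusted p under 0.05, against 19.7% for all genes. Per2 rose in mesenteric fat and liver, Cry2 fell in epididymal fat and Npas2 rose in epididymal fat. Ciart passed in 0 tissues with limma (unadjusted p under 0.05 in 3), and in 1 with edgeR or DESeq2 on recovered reads. A bulk value cannot tell fewer cells of a type from less RNA per cell, which holds for every tissue below.

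**Figure D2:**
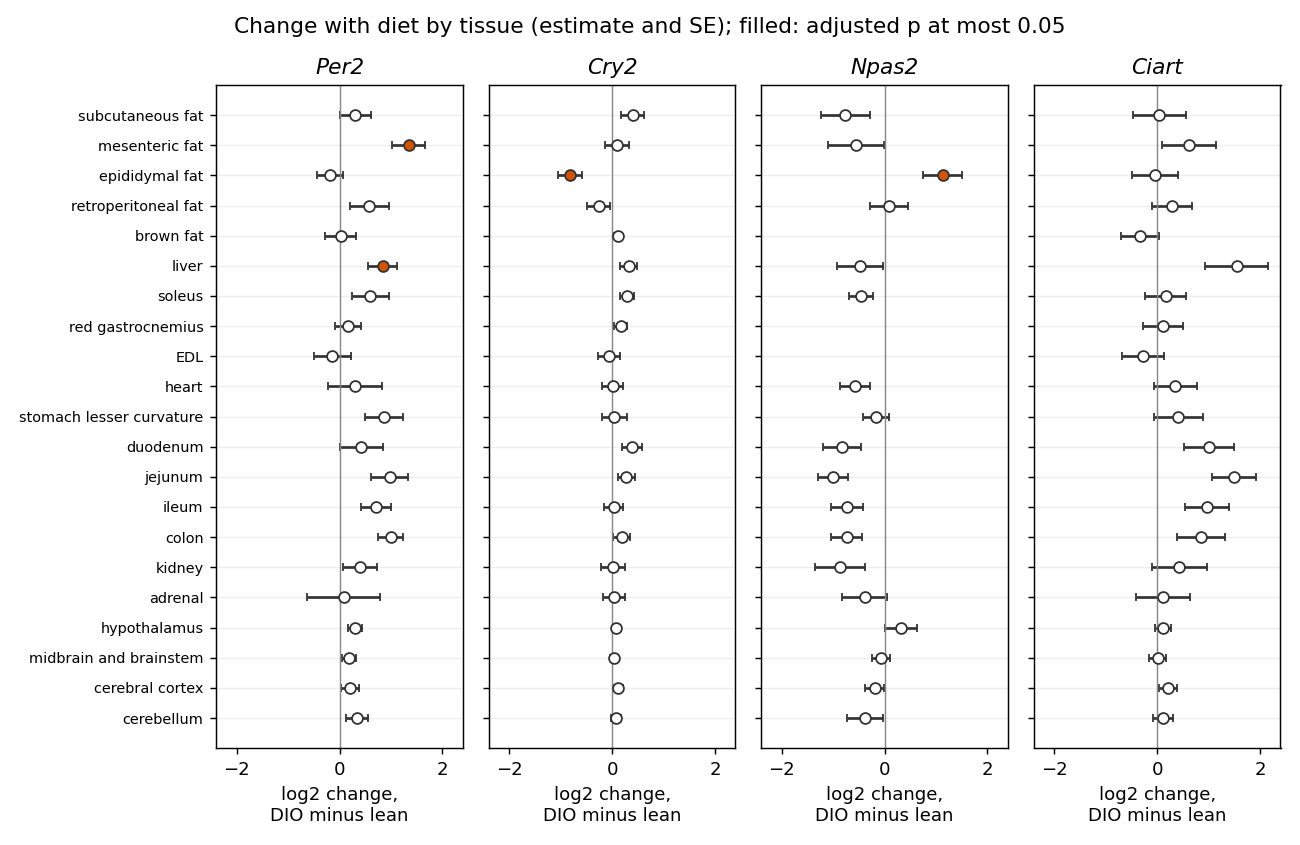
Change with diet of each gene in each tissue, as the log2(CPM + 1) difference DIO minus lean (point) and its SE (bar), with filled points where the adjusted p was at most 0.05. The 4 filled points are Per2 in mesenteric fat and liver, Cry2 in epididymal fat and Npas2 in epididymal fat; Per2 and Ciart lie mostly right of 0 and Npas2 mostly left of it.

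Per2 had a positive difference in 19 of 21 tissues, with a median of 0.34 (log2), and Ciart in 18 of 21, with a median of 0.21. Npas2 had a negative one in 15 of 18, with a median of -0.47, and Cry2 a positive one in 18 of 21, with a median of 0.08. After rescaling by median-of-ratios factors these counts were 17 of 21 for Per2, 18 of 21 for Ciart, 16 of 18 for Npas2 and 13 of 21 for Cry2. The design text named 5 mice of each diet, so libraries of different tissues may share a mouse. The tissues are therefore not counted as independent. All genes tested shifted as well, by a median of 0.43 (log2) in mesenteric fat, 0.23 in retroperitoneal fat, 0.16 in stomach, 0.15 in epididymal fat and duodenum, 0.12 in adrenal, 0.11 in liver and -0.13 in EDL.

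White fat held 3 of the 4 calls, and many genes of every kind changed there. Of all genes tested, 35.2% passed in mesenteric fat, 52.2% in epididymal fat, 41.3% in retroperitoneal fat and 12.4% in subcutaneous fat. Per2 in mesenteric fat was 41.8, 14.7, 21.2 and 26.0 CPM in DIO libraries, against 10.6, 8.87 and 7.50 CPM in lean libraries. Every DIO library lay above every lean one. The difference was 1.35 ± 0.32 (log2, SE; adjusted p = 0.0199, limma), and 1.57 (adjusted p = 0.00222) without DIO 2, the library with high Cr2. It was 0.96 after rescaling (adjusted p = 0.0916) and 1.13 by edgeR (adjusted p = 0.0732). It missed the threshold without DIO 4 (1.31, adjusted p = 0.0503), lean 1 (1.46, adjusted p = 0.0595), lean 2 (1.34, adjusted p = 0.0719) or lean 3 (1.23, adjusted p = 0.0763).

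In epididymal fat Cry2 and Npas2 moved in opposite directions. Cry2 was 29.4, 56.7, 37.8, 47.1 and 78.1 CPM in DIO libraries, against 81.5, 76.3, 80.2, 73.0 and 115 CPM in lean libraries. Only DIO 5, the library with the fewest reads of the series, reached into the lean range. The difference was -0.82 ± 0.23 (log2, SE; adjusted p = 0.00889, limma), and it passed under each of 10 other settings and with any 1 library left out. The diet by tissue tests, here and below, treated libraries of different tissues as independent, although these may share a mouse. Cry2 was also the member that passed the diet by tissue test with limma, as did many genes. It passed over the 4 white depots (adjusted p = 0.0368, where 31.9% of genes passed) and over all 21 tissues (adjusted p = 0.0378, where 60.5% passed). Both missed the threshold with no filter on low genes, at adjusted p = 0.0849 in white fat and 0.0725 in all tissues. Its values in the other depots were -0.26 in retroperitoneal (0.04 without DIO 3 and lean 2), 0.40 in subcutaneous and 0.10 in mesenteric fat. In mesenteric fat the 4 DIO libraries were 81.3, 46.5, 85.7 and 87.5 CPM, against 69.4, 73.1 and 62.6 CPM in the 3 lean ones. Without DIO 2, Cry2 there was higher by 0.31 (adjusted p = 0.011), while it was -0.31 after rescaling and -0.26 by edgeR and by DESeq2.

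Npas2 in epididymal fat was 13.8, 8.81, 14.6, 11.6 and 3.50 CPM in DIO libraries, against 5.10, 2.59, 4.76, 7.25 and 1.49 CPM in lean libraries. The ranges overlapped through DIO 5, the lowest of its group. The difference was 1.13 ± 0.38 (log2, SE; adjusted p = 0.0236, limma), 0.99 after rescaling (adjusted p = 0.0506) and 1.10 by edgeR (adjusted p = 0.0513). The call was lost without DIO 1 (adjusted p = 0.0543), DIO 3 (0.0634), DIO 4 (0.0534), lean 2 (0.0585) or lean 5 (0.0595, difference 0.89). Per2 and Ciart in the same libraries differed by -0.18 ± 0.25 and -0.03 ± 0.45 (log2, SE). Diet by tissue tests over white fat did not pass for Npas2 (adjusted p = 0.0802), Per2 (0.0995) or Ciart (0.855).

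Macrophage and adipocyte markers moved with diet in these depots. The sum of the 4 macrophage markers Ctss, Fcer1g, Mrc1 and Atp6v0d2 ran between 1322 and 4057 CPM in DIO and between 120 and 178 CPM in lean epididymal fat, and between 572 and 879 CPM in DIO and between 97.3 and 138 CPM in lean mesenteric fat. All 4 rose in both depots. The sum of the adipocyte markers Fabp4 and Irs1 ran between 3769 and 10338 CPM in DIO and between 12661 and 18665 CPM in lean epididymal fat; both fell there, while in mesenteric fat Irs1 fell and Fabp4 did not pass. Their part in the values of Per2, Cry2 and Npas2 was not tested.

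In liver, where 23.5% of genes passed, Per2 and Ciart were both high in the same DIO libraries. Per2 was 42.9, 20.5, 16.1, 38.4 and 44.7 CPM in DIO libraries, against 13.2, 19.1, 11.3, 19.5 and 21.3 CPM in lean libraries. DIO 1, 4 and 5 lay above every lean library and DIO 2 and 3 inside the lean range. The difference was 0.84 ± 0.28 (log2, SE; adjusted p = 0.0460, limma). It missed the threshold after rescaling (0.71, adjusted p = 0.119), by edgeR (adjusted p = 0.0686) and by DESeq2 (0.0741), and it passed in 3 of 10 fits with 1 library left out. The libraries without which it missed were DIO 1, 4 and 5 (adjusted p = 0.0922, 0.110 and 0.103) and lean 1, 2, 3 and 4 (0.0937, 0.0579, 0.110 and 0.0611).

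Ciart in liver was 17.0, 3.73, 0.966, 13.9 and 18.1 CPM in DIO libraries, against 1.08, 2.29, 1.30, 0.761 and 7.09 CPM in lean libraries. Its difference of 1.55 ± 0.61 (log2, SE) did not pass (adjusted p = 0.0889, limma), but it was 2.08 (adjusted p = 0.00915) without DIO 3 and 1.91 (adjusted p = 0.0434) without lean 5. Npas2 in liver was 0.243, 1.06, 5.19, 0.214 and 0.249 CPM in DIO libraries, against 3.17, 0.805, 1.55, 3.14 and 0.603 CPM in lean libraries. DIO 3, the lowest DIO library for Per2 and for Ciart, was the highest for Npas2. The Npas2 difference was -0.48 ± 0.44 (adjusted p = 0.469), and -0.91 (adjusted p = 0.0469) without DIO 3. Liver Cry2 differed by 0.32 ± 0.17 (adjusted p = 0.180). The macrophage sum was 78.9 to 138 CPM in DIO and 78.6 to 99.4 CPM in lean liver, where 1 of the 4 markers, Atp6v0d2, rose.

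In the gut the fitted differences of Per2 and Ciart were positive and those of Npas2 negative in every segment, and none passed with limma. Few genes passed there at all: 5.42% in jejunum, 0.311% in duodenum, 0.0303% in stomach, and 0% in ileum and in colon. With limma, 169 ileum and 587 colon genes had an unadjusted p under 0.05; edgeR passed 0 and 2 genes and DESeq2 1 and 170. In colon Per2 was 49.4, 21.9, 20.98, 33.9 and 48.4 CPM in DIO libraries, against 17.1, 15.7, 10.5, 17.5 and 20.6 CPM in lean libraries. The groups did not overlap, and the difference was 0.99 ± 0.25 (log2, SE; adjusted p = 0.105, limma), with adjusted p = 0.00782 by DESeq2. Of 84 gene and tissue pairs, the 2 without overlap were Per2 in colon and Per2 in mesenteric fat. How often the groups of other genes did not overlap was not counted, so this count has no background share.

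Jejunum is shown in full for 3 of the genes. Ciart there was 8.82, 1.66, 0.741, 3.13 and 9.58 CPM in DIO libraries, against 0.377, 0.877, 0.287, 0.889 and 0.785 CPM in lean libraries. DIO 1, 2, 4 and 5 lay above every lean library. The difference was 1.49 ± 0.43 (log2, SE; adjusted p = 0.0577, limma), and it passed by edgeR (2.98, adjusted p = 0.0212), by DESeq2 (3.01, adjusted p = 8.20e-05), without DIO 2 (1.69, adjusted p = 0.0453) and without DIO 3 (1.84, adjusted p = 0.0312). Npas2 was 13.5, 20.3, 26.7, 23.6 and 9.94 CPM in DIO libraries, against 53.4, 31.7, 27.2, 58.2 and 24.8 CPM in lean libraries. Its difference was -1.01 ± 0.29 (adjusted p = 0.0572, limma). Per2 was 45.0, 13.3, 10.3, 28.4 and 29.5 CPM in DIO libraries, against 9.10, 14.4, 7.00, 9.41 and 16.7 CPM in lean libraries, with a difference of 0.97 ± 0.35 (adjusted p = 0.115). Over duodenum, jejunum, ileum and colon the diet by tissue test, which 11.0% of genes passed, gave adjusted p = 0.796 for Per2, 0.708 for Cry2, 0.966 for Npas2 and 0.892 for Ciart.

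In the other gut segments the differences had the same signs. In ileum they were 0.70 ± 0.29 for Per2, -0.73 ± 0.31 for Npas2 and 0.97 ± 0.43 for Ciart (log2, SE; adjusted p = 0.874 each). In duodenum they were 0.43 ± 0.42, -0.83 ± 0.37 and 1.01 ± 0.49 in that order of genes, and in stomach 0.86 ± 0.37, -0.17 ± 0.26 and 0.41 ± 0.48. Colon Npas2 was -0.74 ± 0.30 and colon Ciart 0.85 ± 0.47. The differences of Cry2 ran between 0.03 in ileum and 0.39 in duodenum, and after rescaling those in stomach and ileum were -0.12 and -0.06.

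In muscle, heart, kidney, adrenal and brown fat no member passed. The share of all genes that passed was 1.24% in soleus, 2.63% in red gastrocnemius, 0% in EDL, 0.0702% in heart, 0.0663% in kidney, 0.148% in adrenal and 41.8% in brown fat. In EDL, limma gave 72 genes with an unadjusted p under 0.05, edgeR passed 0 and DESeq2 2. Soleus had differences of 0.60 ± 0.35 for Per2, 0.30 ± 0.14 for Cry2, -0.45 ± 0.23 for Npas2 and 0.16 ± 0.39 for Ciart. Over the 3 muscles the diet by tissue test passed 0% of genes with limma (83 at an unadjusted p under 0.05) and 0 with edgeR. Kidney Npas2 was 1.44, 3.92, 16.9, 3.81 and 1.74 CPM in DIO libraries, against 10.1, 6.00, 12.8, 10.4 and 3.71 CPM in lean libraries. Again DIO 3 stood above its group, and the difference was -0.87 ± 0.48 (adjusted p = 0.452).

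Adrenal Per2 was 18.0, 8.00, 61.8, 64.8 and 104 CPM in DIO libraries, against 10.1, 35.0, 55.8, 39.2 and 61.4 CPM in lean libraries. The 3 libraries without the cortex marker, DIO 1, DIO 2 and lean 1, had the lowest values of the tissue. With them the difference was 0.08 ± 0.70 (adjusted p = 0.985), and without them 0.67 ± 0.25 (adjusted p = 0.308), with every remaining DIO library above every lean one. In brown fat the Per2 difference was 0.02 ± 0.30 with all libraries and -0.28 ± 0.29 without DIO 5 and lean 2, which had high Tnnc2. In retroperitoneal fat it was 0.58 ± 0.38 with all libraries and 0.89 ± 0.37 (adjusted p = 0.0854) without DIO 3 and lean 2. Retroperitoneal Npas2 was 0.09 with all libraries and -0.14 without those 2, and adrenal Ciart 0.11 with all libraries and -0.03 without the 3 lacking the marker. Subcutaneous Cry2 was 0.40 ± 0.22 with all libraries and 0.14 ± 0.09 without lean 2 and 3.

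In the 4 brain regions no member passed. The share of all genes that passed was 0% in hypothalamus, cerebral cortex and cerebellum, and 0.0292% in midbrain and brainstem. Limma gave 100, 103 and 32 genes with an unadjusted p under 0.05 in the first 3 regions, where edgeR and DESeq2 each passed 0. Hypothalamic Per2 was 40.6, 27.0, 42.8, 34.1 and 31.0 CPM in DIO libraries, against 36.0, 27.1, 27.8, 24.9 and 25.1 CPM in lean libraries. The groups overlapped, and the difference was 0.30 ± 0.13 (adjusted p = 0.865). Ciart differed by 0.11 ± 0.15 in hypothalamus and by 0.01 ± 0.16 in midbrain and brainstem, and Cry2 by at most 0.12 in any of the 4 regions. The diet by tissue test over brain passed 0% of genes with limma (56 at an unadjusted p under 0.05) and 0 with edgeR.

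3 members, Ciart, Per2 and Npas2, varied between libraries of 1 group far more than most genes. The within-group SD of log2(CPM + 1) lay at a median percentile of 97.7 among the genes tested for Ciart, 94.0 for Per2, 92.9 for Npas2 and 62.6 for Cry2, over the tissues in which each was tested. Ciart reached the 90th percentile or above in 16 tissues, Per2 and Npas2 in 13 each and Cry2 in 1. Among groups with no library at 0, the widest span was that of Npas2 in DIO liver, where the highest library was 24.2 times the lowest. Ciart in lean epididymal fat spanned 23.3 times, and Ciart in DIO liver 18.8 times.

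These deviations ran together across genes. Over all libraries, the deviations of Npas2 and Ciart from their group means had a Pearson r of -0.72. The r was -0.79 over the 164 libraries outside the brain and 0.09 over the 40 of brain, and it was negative in 19 of 21 tissues, down to -0.96 in kidney. The brain regions differed, with r = -0.64 in midbrain and brainstem, -0.06 in cerebral cortex, 0.30 in cerebellum and 0.38 in hypothalamus. Per2 and Ciart had r = 0.66 outside the brain and -0.38 within it, and Per2 and Cry2 0.64 and 0.11. Cry2 and Ciart had r = 0.58 outside the brain, Per2 and Npas2 -0.51, and Cry2 and Npas2 -0.50. Genes of 1 library share its scaling and depth, and libraries of different tissues may share a mouse, so these values are descriptions and carry no test.

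**Figure D3:**
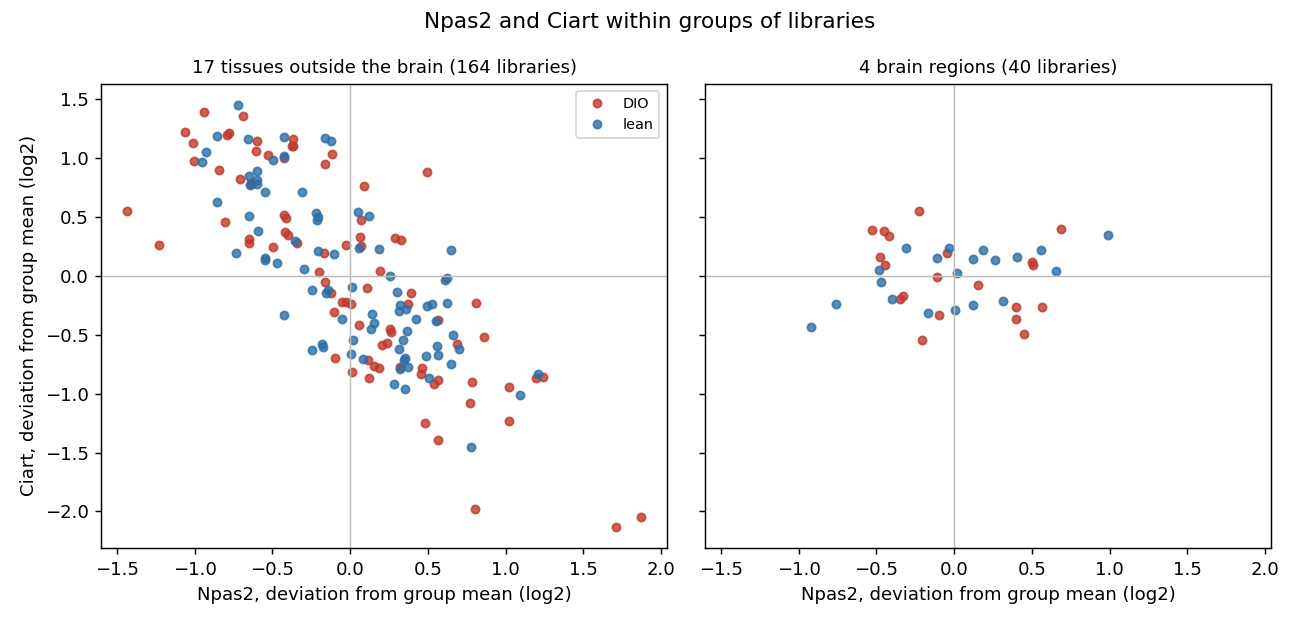
Deviation of Npas2 (x axis) and Ciart (y axis) from the mean of their tissue and diet, in log2 units, with 1 point per library: 164 libraries of 17 tissues outside the brain on the left and 40 of 4 brain regions on the right. Outside the brain the points fall along a descending band (r = -0.79). The pooled brain points show no such band (r = 0.09), but r by region ran between -0.64 in midbrain and brainstem and 0.38 in hypothalamus.

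The same library numbers recurred at the extremes, although the labels do not tie a number to a mouse. Among the 19 tissues with 5 DIO libraries, DIO 3 had the highest Npas2 in 15 and the lowest Ciart in 13. DIO 5 had the highest Ciart in 11 and DIO 1 in the other 8. For Per2, DIO 5 was highest in 9 tissues and DIO 2 lowest in 9. Among the 19 tissues with 5 lean libraries, lean 5 had the highest Ciart in 13, the highest Per2 in 13 and the lowest Npas2 in 10. Lean 4 had the highest Npas2 in 9 and the lowest Ciart in 10. The median deviation of Ciart was 0.90 for DIO 5 and -0.87 for DIO 3, and 0.85 for lean 5 and -0.62 for lean 4 (log2). What sets the numbers apart, including the hour of dissection, was not tested.

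**Figure D4:**
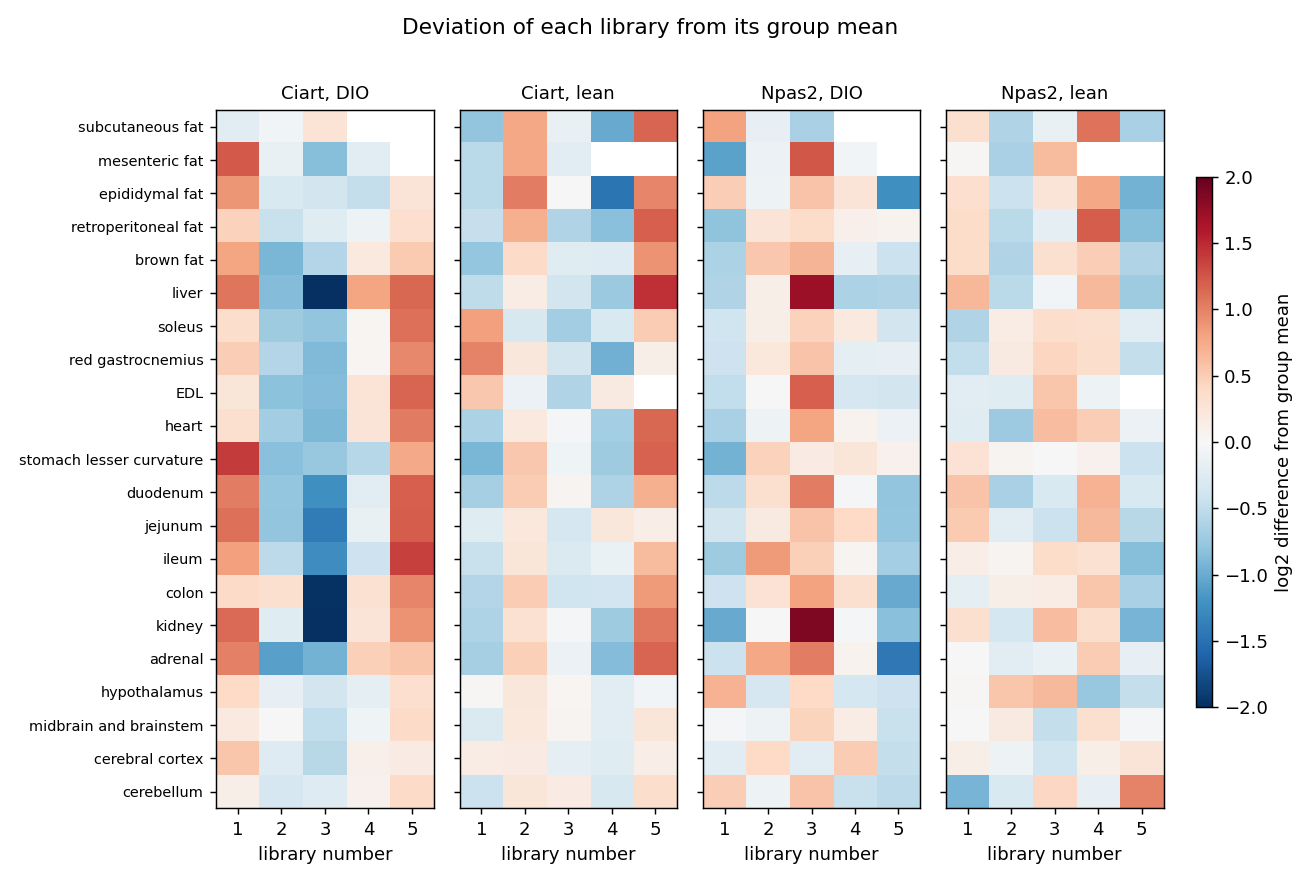
Deviation of each library from its group mean (log2, red above and blue below) for Ciart and Npas2, by tissue (rows) and library number (columns), DIO left of lean for each gene; colours saturate at 2 either way and blank cells have no library. The DIO 3 column is low for Ciart (median -0.87) and high for Npas2 (median 0.57), while the DIO 4 column is mixed (medians 0.04 and 0.07), and the 4 brain rows at the bottom are pale for Ciart.

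Likeness of the deviations was measured over all libraries and 3765 genes averaging 1 CPM or more. For Per2 the nearest 3 were Stk35 (r = 0.66), Ciart (0.62) and Cry2 (0.61). For Cry2 they were Slc2a8, a glucose transporter gene (0.62), Per2 (0.61) and Ciart (0.57). For Ciart they were Per2 (0.62), Cry2 (0.57) and Coq10b (0.50). Npas2 was followed by genes outside the set, Adamts4 (0.56), Ankrd50 (0.44) and Efnb1 (0.42). The gene most opposed to Npas2 was Ciart, and the gene most opposed to Ciart was Npas2 (-0.72).

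Likeness of lean tissue level over 21 tissues named other genes. Per2 was nearest to Ncoa6 (r = 0.85), Klhdc9 (0.84) and Pogz (0.84), and Cry2 to Tdrkh (0.93), Cep170 (0.92) and Elk1 (0.92). Npas2 was nearest to Src (0.93), 2010300C02Rik (0.92) and Stk25 (0.91), and Ciart to Tsc1 (0.87), Amigo1 (0.87) and R3hdm1 (0.86). For the change with diet over 21 tissues, Per2 was nearest to Zranb2 (0.79), Srsf11 (0.78) and Ccdc187 (0.78), and Cry2 to Gm13375 (0.89), Mnd1 (0.87) and Bche (0.86). Npas2 was nearest to Nfasc (0.74), Chmp4b (0.70) and Dlg3 (0.69), and Ciart to Tatdn3 (0.75), Brd3os (0.75) and Carf (0.74). No member was among the nearest 3 of another in these last measures. For the change with diet, Cry2 ranked 3 among the genes most opposed to Npas2 (r = -0.79). Npas2 ranked 2 among those most opposed to Per2 (r = -0.52).

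Other genes tied to the clock described here numbered 15: Noct, Tsc22d3, Lonrf3, Nono, Ogt, Ncoa2, Csnk2a1, Creb1, Crtc2, Atf2, Usp9x, Id1, Lgr4, Avp and Prokr2. With diet, 5 rose and 0 fell of 13 tested in mesenteric fat, where 35.2% of all genes passed. In retroperitoneal fat 6 rose and 0 fell of 13 (41.3% of all genes), and in epididymal fat 3 rose and 1 fell of 13 (52.2%). In subcutaneous fat 3 rose and 0 fell of 12 (12.4%), and in liver 2 rose and 1 fell of 13 (23.5%). In brown fat 0 rose and 3 fell of 12 (41.8%), and in jejunum 1 rose and 0 fell of 13 (5.42%). The shares of the list were near or below those of all genes in every one of these tissues except subcutaneous fat, where 3 of 12 passed. None passed in the other 14 tissues with limma. The median difference of the list was 0.63 (log2) in mesenteric fat, against 0.43 for all genes tested there, 0.41 against 0.23 in retroperitoneal fat and 0.23 against 0.15 in epididymal fat. In subcutaneous fat it was -0.0030 against -0.04, in liver 0.02 against 0.11, in brown fat 0.02 against 0.09 and in jejunum -0.31 against -0.08. After rescaling, the counts were 1 and 1 in mesenteric, 2 and 1 in retroperitoneal, 2 and 2 in epididymal, 0 and 0 in subcutaneous fat, 0 and 1 in liver, 0 and 6 in brown fat, and 1 and 0 in jejunum. Without the libraries that stood apart they were 10 and 0 of 13 in mesenteric fat (59.0% of all genes passed), 2 and 0 of 13 in retroperitoneal (35.3%), 4 and 1 of 13 in subcutaneous (44.5%) and 1 and 3 of 12 in brown fat (36.7%).

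Noct, which encodes the rhythmic phosphatase nocturnin, rose in 4 tissues. In subcutaneous fat it was 115 to 140 CPM in DIO and 32.0 to 77.6 CPM in lean libraries, without overlap, a difference of 1.27 (log2; adjusted p = 0.0348, limma) that missed the threshold after rescaling (1.29, adjusted p = 0.0582). It rose by 0.96 in epididymal fat (adjusted p = 0.00133), by 1.05 in retroperitoneal fat (0.00238) and by 1.10 in liver (0.0391). After rescaling the epididymal and retroperitoneal calls held, at 0.80 each, and the liver call did not (0.98, adjusted p = 0.0761). Tsc22d3, a gene induced by glucocorticoids, rose in subcutaneous fat by 0.59 (adjusted p = 0.0371) and in mesenteric fat by 1.31 (adjusted p = 0.00581), where DIO libraries had 125 to 182 CPM and lean libraries 45.0 to 75.0 CPM. After rescaling its differences were 0.61 (adjusted p = 0.0543) in subcutaneous and 0.90 (adjusted p = 0.0366) in mesenteric fat.

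Lonrf3 rose in epididymal fat, to 6.06 to 13.5 CPM in DIO libraries against 0 to 1.10 CPM in lean ones (2.64, adjusted p = 2.84e-06, limma), and in retroperitoneal fat, to 2.60 to 8.07 CPM against 0 to 0.642 CPM in lean ones (2.02, adjusted p = 8.58e-05). Id1, which encodes an inhibitor of helix-loop-helix factors, fell in epididymal fat by 1.16 (adjusted p = 0.00125) and in liver by 0.71 (adjusted p = 0.0113), and both calls held after rescaling. Ogt, the O-GlcNAc transferase, rose in jejunum by 0.77 (adjusted p = 0.0100), in mesenteric fat by 0.78 (0.0254), in retroperitoneal fat by 0.67 (0.0219) and in liver by 0.21 (0.0492). Of these, the jejunum call held after rescaling. In subcutaneous fat the Ogt difference was negative, at -0.69 with all libraries (adjusted p = 0.0949, limma). Without lean 2 and 3 it was -0.40 and passed (adjusted p = 0.0106, limma).

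Lgr4, a receptor for R-spondins, rose in subcutaneous fat by 1.12 (adjusted p = 0.0438) and in mesenteric fat by 0.71 (0.0471) and fell in brown fat by 0.34 (0.0489). After rescaling the rises were 1.13 (adjusted p = 0.0740) and 0.30 (0.437), the fall in brown fat held, and Lgr4 also fell in epididymal fat by 0.58 (0.0375). Without lean 2 and 3 the subcutaneous difference was 0.72 (adjusted p = 0.000274). Ncoa2, a coactivator of nuclear receptors, rose by 0.63 in mesenteric fat (adjusted p = 0.0112) and by 0.65 in retroperitoneal fat (0.0308); after rescaling these were 0.22 (0.163) and 0.40 (0.119). Atf2, a factor of the cyclic AMP response element, rose in mesenteric fat by 0.52 (0.0132), which was 0.11 (0.486) after rescaling, and fell in brown fat by 0.24 (0.0282), a call that held. Usp9x, a deubiquitinase, rose in epididymal fat by 0.49 (adjusted p = 0.0212) and in retroperitoneal fat by 0.59 (0.0407) and fell in brown fat by 0.26 (0.0103), and Crtc2, a CREB coactivator, rose in retroperitoneal fat by 0.41 (0.0434). After rescaling the rises of Usp9x were 0.33 (adjusted p = 0.0660) and 0.34 (0.157) and that of Crtc2 was 0.16 (0.420), while the fall of Usp9x held. Without DIO 3 and lean 2, the retroperitoneal rises of Ncoa2, Usp9x, Ogt and Crtc2 missed the threshold (adjusted p = 0.0602, 0.0754, 0.0533 and 0.115). Nono, Csnk2a1, Creb1, Avp and Prokr2 passed in 0 tissues with limma on all libraries before rescaling. Their unadjusted p in that fit was under 0.05 in 2 tissues for Nono, 3 for Csnk2a1, 2 for Creb1 and 0 for Avp and for Prokr2. EdgeR passed 0 of the 5, and DESeq2 passed Nono and Csnk2a1 in 1 tissue each. Without DIO mesenteric fat 2, limma passed Creb1 (0.55, adjusted p = 0.000776), Nono (0.36, 0.00159) and Csnk2a1 (0.22, 0.0163) in mesenteric fat, as it did 59.0% of all genes. After rescaling, limma passed Nono (-0.14, adjusted p = 0.0286) and Csnk2a1 (-0.12, 0.0318) in brown fat, where 1218 of 2771 genes passed.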

How the data were processed

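RNA from frozen tissue was sequenced as 100-nucleotide read pairs from stranded mRNA libraries, per the labels' protocols. FastQC, STAR, HTSeq and DESeq2 were used, per the submitters' processing notes, and their versions, their settings and the genome build are not given in the sources here. The authors deposited CPM per gene; of 205 columns, 1 without a matching sample was set aside, as was 1 gene with missing values. Gene identifiers were paired with symbols through GENCODE M21 (13139 of 13153 matched). Whole reads were recovered from 100% of values within 0.001 read.

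Each tissue was fitted alone with limma 3.58.1 (R 4.3.3) on log2(CPM + 1), with a mean-variance trend, over genes averaging 1 CPM or more there; fold changes on this scale understate those of low genes. Alternatives were pseudocounts of 0.25 and 5, a 10 CPM filter, no filter, median-of-ratios rescaling, array weights, 1 fit of all tissues together, a covariate made of 10 genes that another account of these data had used, edgeR 4.0.16 and DESeq2 1.42.0 on recovered reads, and leaving out libraries. Scripts were tested on simulated data. The members are the 4 genes given. The lists, and the rule that names all members, the associated genes that passed in a tissue and the 3 genes nearest each member, were chosen with earlier results of these data known. One gene of the list of other clock genes is not reported here.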

Additional observations from a re-analysis of the deposited data

Results flagged for a closer look

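Within groups of 4 or 5 libraries, 160 sets of values were screened for a library far from the others, and 14 were picked out. Chance picks about 1 in 20. The sets are not independent, since the 4 genes share libraries, so the count is not weighed against that rate. For Npas2 the single high libraries were DIO 3 in liver at 5.19 CPM (the others 0.214 to 1.06), in kidney at 16.9 CPM (1.44 to 3.92) and in EDL at 2.91 CPM (0.21 to 0.723), lean 3 in EDL at 1.24 CPM (0.285 to 0.414) and lean 4 in adrenal at 7.56 CPM (4.19 to 5.05). Ciart was high in lean liver 5, at 7.09 CPM (0.761 to 2.29). Per2 was high in lean subcutaneous fat 5, at 33.1 CPM (15.0 to 15.9), and in lean hypothalamus 1, at 36.0 CPM (24.9 to 27.8).

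Cry2 gave 6 of these. It was low in DIO mesenteric fat 2, at 46.5 CPM (the others 81.3 to 87.5), the library with high Cr2, and in DIO jejunum 3, at 13.4 CPM (21.7 to 24.4). It was high in DIO hypothalamus 1, at 130 CPM (107 to 113), in lean jejunum 4, at 20.2 CPM (15.3 to 16.4), in lean colon 5, at 51.7 CPM (35.3 to 37.7), and in lean epididymal fat 5, at 115 CPM (73.0 to 81.5). The diet by tissue test of Cry2 passed over the white depots (adjusted p = 0.0368, limma) and over all tissues (adjusted p = 0.0378, limma). Both missed the threshold with no filter (adjusted p = 0.085 and 0.072, limma). Libraries of different tissues, which may share a mouse, were treated as independent in these tests. The shares of all genes that passed these tests were 31.9% and 60.5%.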

How the results depend on the processing

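Cry2 in epididymal fat passed under every alternative run, with differences between -0.999 and -0.65 (log2). The other 3 calls depended on the setting. Per2 passed in 2 tissues as reported, in 1 with no filter, in 0 after rescaling, in 5 with array weights and in 1 in the single fit. It passed in 0 with edgeR, in 3 with DESeq2 (colon among them and liver not) and in 1 with the covariate of 10 genes. Leaving out 1 library gave 1 where the count moved. Cry2 passed in 1 tissue as reported, in 4 with array weights, and in 2 without the libraries that stood apart; leaving out DIO mesenteric 2 or lean duodenum 3 gave 2. Npas2 passed in 1 as reported, in 0 with no filter, after rescaling or with edgeR, and in 2 with array weights or DESeq2; leaving out 1 library gave between 0 and 2. Ciart passed in 0 as reported, in 1 with array weights, edgeR or DESeq2, and in 2 in the single fit; leaving out 1 library gave at most 1. Array weights raised the gene and tissue pairs passed over all genes to 13902, against 6626 as reported. Member diet by tissue tests passed were 2 as reported, 0 with no filter and 6 with array weights.

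Direction turned for Cry2 in mesenteric fat (0.10 as reported), at -0.31 after rescaling, -0.26 with edgeR and with DESeq2 and -0.012 with the covariate, and for Cry2 in heart (0.01 as reported), at -0.0359 with edgeR, -0.0318 with DESeq2 and between -0.0912 and 0.153 with 1 library left out; the cause was not tested. Among values that passed nowhere, 106 of 1277 recomputed changed sign. Of 24 recomputed lists of the 3 nearest genes, 14 kept at least 2. No paired analysis was possible because library numbers follow the order of records and the labels do not tie libraries to mice. Depth limits Npas2 in muscle, brown fat and liver and Ciart in small intestine, where levels were near 1 CPM; intervals for counting error were not used, since replicate spread was larger.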
